A study of Mus musculus with 8 samples.

Results

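The tumour suppressor gene Trp53, its regulators Mdm2 and Mdm4 and 6 of its target genes outside the BCL2 family, Cdkn1a, Ccng1, Phlda3, Zmat3, Aen and Trp53inp1, were followed in mouse myeloid progenitors. The 9 genes were chosen by name and found by symbol among the 33435 genes of the raw count table. All 9 passed the filter on low counts, which left 11040 genes to test.

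RNA was sequenced from 4 libraries of myeloid progenitors infected with a Trim27 virus and 4 libraries infected with a GFP control virus. Both groups started from E14.5 fetal liver hematopoietic stem and progenitor cells of the C57BL/6J strain, which were infected first and sorted for myeloid progenitors afterwards. Trim27 is a ubiquitin ligase of the tripartite motif family, and the design describes the first group as overexpressing it and the second as carrying an empty vector. The labels name neither the viral vector nor its promoter, and are silent on whether a group's libraries were separate cultures or animals. The p-values therefore reflect library-to-library spread, part or all of which may be technical.

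The p53 protein is a transcription factor that damage and other stresses stabilise. Mdm2 ubiquitinates p53 and marks it for degradation, Mdm4 binds p53 and blocks its activity, and Mdm2 is itself a p53 target, which closes a feedback loop. Much of p53 control acts on the protein, so the level of Trp53 mRNA does not by itself measure p53 activity. In hematopoietic progenitors the pathway is known for holding cells in quiescence and for removing damaged cells.

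p53 binds pairs of 10-base half-sites, each with the letters CNNG at its core, where the inner letters are A or T, purines before and pyrimidines after. The half-site reads the same on both strands. RefSeq start-site windows of the build GRCm38.p6, from 250 bases before to 50 after the start, were found for 7 of the 9 members (Trp53, Mdm2, Mdm4, Cdkn1a, Ccng1, Phlda3 and Aen), in 10 windows. The counts themselves were made on NCBIM37, per the submitters' processing notes, so these coordinates name the sequences and were not used with the counts.

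An exact half-site stood in 6 of the 10 windows, those of 5 members, against 8.36% of all 32851 windows. Pairs of adjacent half-sites were also sought, with the C and G of both cores in place and at most 3 mismatches in 20 bases. The inner letters of a core could be among the mismatches. Such a pair stood in 5 windows, those of 4 members, against 1.38% of all windows. Genes known as p53 targets were chosen here, so these counts describe the members and test nothing, and a match is not a bound site. The paired matches are shown because they let the members that rose and fell be compared letter by letter, with the cores in capitals.
Cdkn1a, chr17:29090928-29090947, plus strand: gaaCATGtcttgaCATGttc
Aen, chr7:78895937-78895956, plus strand: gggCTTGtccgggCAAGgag
Ccng1, chr11:40755462-40755481, minus strand: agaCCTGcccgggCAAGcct
Trp53, chr11:69580284-69580303, plus strand: ggaCTTGcccttaCTTGtta
The Cdkn1a and Ccng1 pairs had 1 mismatch each, and the Aen and Trp53 pairs had 3 each. Mdm2 held a single half-site.
Mdm2, chr10:117710935-117710944, minus strand: gaaCTTGcct
The Cdkn1a pair began 51 bases before the upstream of its 2 starts, which lie 2790 bases apart, and the window of the downstream start held no half-site. The Aen site lay in both of its overlapping windows.

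The 250 bases before the start are given for a member that rose with a paired match, a member that rose with a half-site, a member that was lower with a paired match, and a member that fell with no match, so that presence of the motif can be read beside the direction. Capitals mark the motif matches.
Cdkn1a, chr17:29090729-29090978, plus strand: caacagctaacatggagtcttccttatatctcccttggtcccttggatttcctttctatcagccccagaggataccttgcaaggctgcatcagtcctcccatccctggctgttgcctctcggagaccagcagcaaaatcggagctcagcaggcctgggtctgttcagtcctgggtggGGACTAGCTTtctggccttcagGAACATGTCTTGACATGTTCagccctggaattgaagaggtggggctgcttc
Mdm2, chr10:117710759-117711008, minus strand: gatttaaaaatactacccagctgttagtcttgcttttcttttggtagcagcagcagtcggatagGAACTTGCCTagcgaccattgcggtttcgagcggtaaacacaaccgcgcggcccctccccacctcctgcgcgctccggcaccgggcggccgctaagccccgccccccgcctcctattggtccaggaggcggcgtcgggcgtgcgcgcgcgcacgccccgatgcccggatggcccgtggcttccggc
Ccng1, chr11:40755287-40755536, minus strand: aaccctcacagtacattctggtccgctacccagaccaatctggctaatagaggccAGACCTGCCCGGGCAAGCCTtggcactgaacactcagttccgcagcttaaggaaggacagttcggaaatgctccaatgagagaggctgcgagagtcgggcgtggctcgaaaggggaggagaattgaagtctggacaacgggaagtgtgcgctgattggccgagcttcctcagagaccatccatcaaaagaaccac
Phlda3, chr1:135765835-135766084, plus strand: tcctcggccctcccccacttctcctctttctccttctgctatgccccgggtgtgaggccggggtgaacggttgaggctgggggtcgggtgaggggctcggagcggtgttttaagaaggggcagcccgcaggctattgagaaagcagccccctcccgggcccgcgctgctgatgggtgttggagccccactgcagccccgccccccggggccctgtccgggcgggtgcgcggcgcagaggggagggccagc
Members with a match thus lay on both sides. Cdkn1a, Aen and Mdm2 were higher in the Trim27 group, while Ccng1 and Trp53 were lower with TMM scaling but not with library size only. Mdm4, which was higher, and Phlda3, which was lower, held no exact half-site in these windows.

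**Figure D1:**
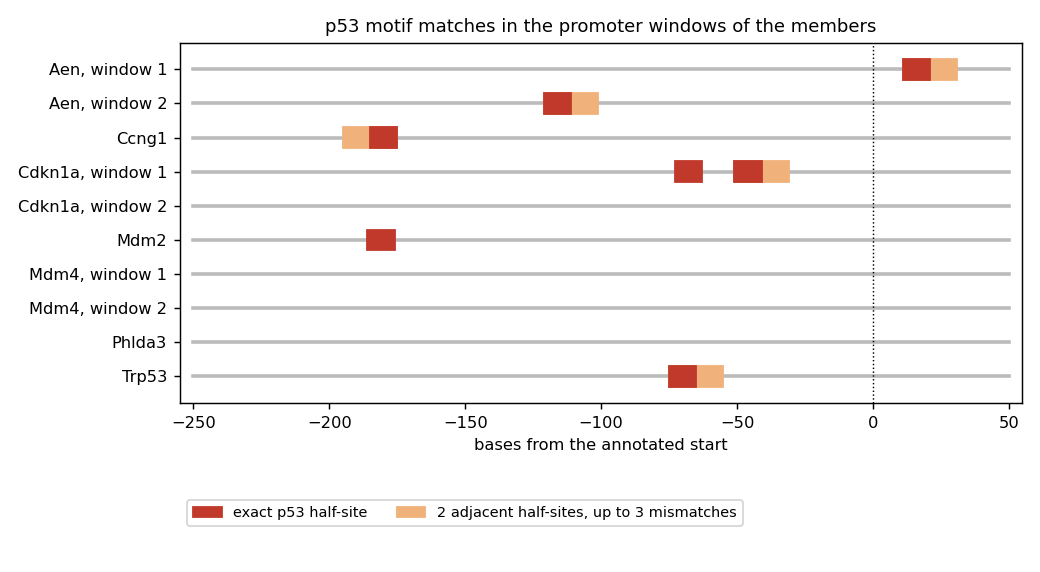
Position of p53 motif matches in the RefSeq start-site windows of 7 members, in bases from the annotated start (dotted line), with each grey line a window. Red blocks are exact half-sites and orange blocks extend them to adjacent pairs with at most 3 mismatches, seen for Aen, Ccng1, Cdkn1a and Trp53, while Mdm2 has a half-site alone and Mdm4 and Phlda3 have none.

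Total counts were 10551137 to 16366571 in the Trim27 libraries and 9257889 to 10747794 in the GFP libraries. Levels are given as CPM, counts divided by a TMM-scaled library size, where TMM is a scaling that assumes most genes do not differ. Trim27 itself was at 292.5 ± 18.4 CPM in the Trim27 group and 180.4 ± 8.51 CPM in the GFP group (SD, n = 4 each), and reads of the virus and of the cell's own gene were not told apart. Cytosolic ribosomal protein genes took 18.48% to 19.31% of the counts in the Trim27 libraries and 26.56% to 26.7% in the GFP libraries. Of the 11040 genes tested, 85.5% passed an adjusted p of 0.05 (edgeR quasi-likelihood test, Benjamini-Hochberg adjustment), 47.5% higher and 38% lower, so a call by itself sets no gene apart here. Called changes of at least 2-fold made up 31.3% of genes upward and 16% downward. Of all calls 55.6% were higher with TMM scaling, 66.9% with library size as the only scaling and 47.2% with the trend of fold change with transcript length removed. Over all genes the median log2 fold change was 0.14 with TMM and 0.44 with library size only, a shift that applies to every member. It fell with abundance under TMM, with a median of 1.91 under 2 mean log2 CPM and 0.65 from 2 to 4. From 4 to 6 the median was 0.12, from 6 to 8 it was -0.17, and at 8 or more -0.37. Values over all genes are thus a loose comparator for lists of other abundance.

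All 10 markers of myeloid progenitors were present, and most fell, with 2 higher, 7 lower (Mpo, Elane, Prtn3, Ctsg, Kit, Cd34 and Fcgr3) and a median log2 fold change of -0.32. Their sum, 2249 to 2486 CPM in the Trim27 libraries and 2034 to 2150 CPM in the GFP libraries, went the other way through Csf2rb, which averaged 1192 CPM in the Trim27 group and 471.2 CPM in the GFP group. Erythroid markers moved in both directions, with Gata1 (0.91 on the log2 scale), Alas2 (2.06) and Slc4a1 (2.98) higher and Klf1 (-0.86), Hba-a1 (-0.65) and Epor (-0.38) lower. Of these, Slc4a1 passed the filter on low counts only through the Trim27 libraries, so the filter favoured its rise. Klf1 averaged 502 CPM in the Trim27 group and 910.6 CPM in the GFP group, and Gata1 313.9 CPM in the Trim27 group and 166.8 CPM in the GFP group. Of 4 megakaryocyte markers Itga2b rose and Pf4, Gp9 and Gp1bb fell, with sums of 744.1 to 776.9 CPM in the Trim27 libraries and 967.7 to 1060 CPM in the GFP libraries. The 7 B cell markers summed to 37.69 to 51.67 CPM in the Trim27 libraries and 53.53 to 131.7 CPM in the GFP libraries, with 4 lower and none higher of 6 tested. The 5 T and NK cell markers summed to 2.097 to 3.392 CPM in the Trim27 libraries and 27.75 to 30.48 CPM in the GFP libraries, nearly all of it Lck (2.157 CPM in the Trim27 group and 28.88 CPM in the GFP group), while Cd3e, Cd3g and Cd3d were at most at 0.19 CPM in either group mean and Ncr1 was at 0. Macrophage markers summed to 9.684 to 11.87 CPM in the Trim27 libraries and at most 0.9558 CPM in the GFP libraries, with C1qa, Mrc1, Marco and Cd163 at 0, 4 of 6, and the Trim27 sum made up of Emr1. Hepatocyte markers summed to 14.25 to 16.42 CPM in the Trim27 libraries and 1.195 to 1.701 CPM in the GFP libraries, with Alb, Ttr, Apob and Fgb at 0, 4 of 6, and the sum made up of Afp and Apoa1. Of 6 endothelial and stromal markers Cdh5, Kdr, Col3a1, Dcn and Lyve1 were at 0, and the sum was 0 in the Trim27 libraries and at most 0.2283 CPM in the GFP libraries. The part of these differences in cell makeup in the results below was not tested.

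The pathway split. Cdkn1a, Aen and Mdm2 rose in the Trim27 group, Mdm4 had counts in the Trim27 libraries alone, Phlda3, Trp53inp1, Ccng1 and Trp53 fell, the last pair only by a little and not with library size as the scaling, and Zmat3 did not pass. With Mdm4, which passed the filter on low counts only through the Trim27 libraries and so had to differ, that is 4 higher and 4 lower of 9, and 8 of 9 called is near the 85.5% of all genes. The groups did not overlap for the same number, 8 of 9, against 80.7% of all genes. The median log2 fold change of the members was 0.25, beside 0.14 over all genes tested, and changes over 2-fold were seen for Cdkn1a, Phlda3, Trp53inp1 and, as a bound, Mdm4. In bulk RNA, fewer cells of a type and less RNA per cell cannot be told apart for any of these values. With library size as the only scaling 2 members were lower, since Trp53 turned to a rise (0.15) and Ccng1 to 0.03, not called. Of all 11040 genes 3108 were lower at that setting.

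**Figure D2:**
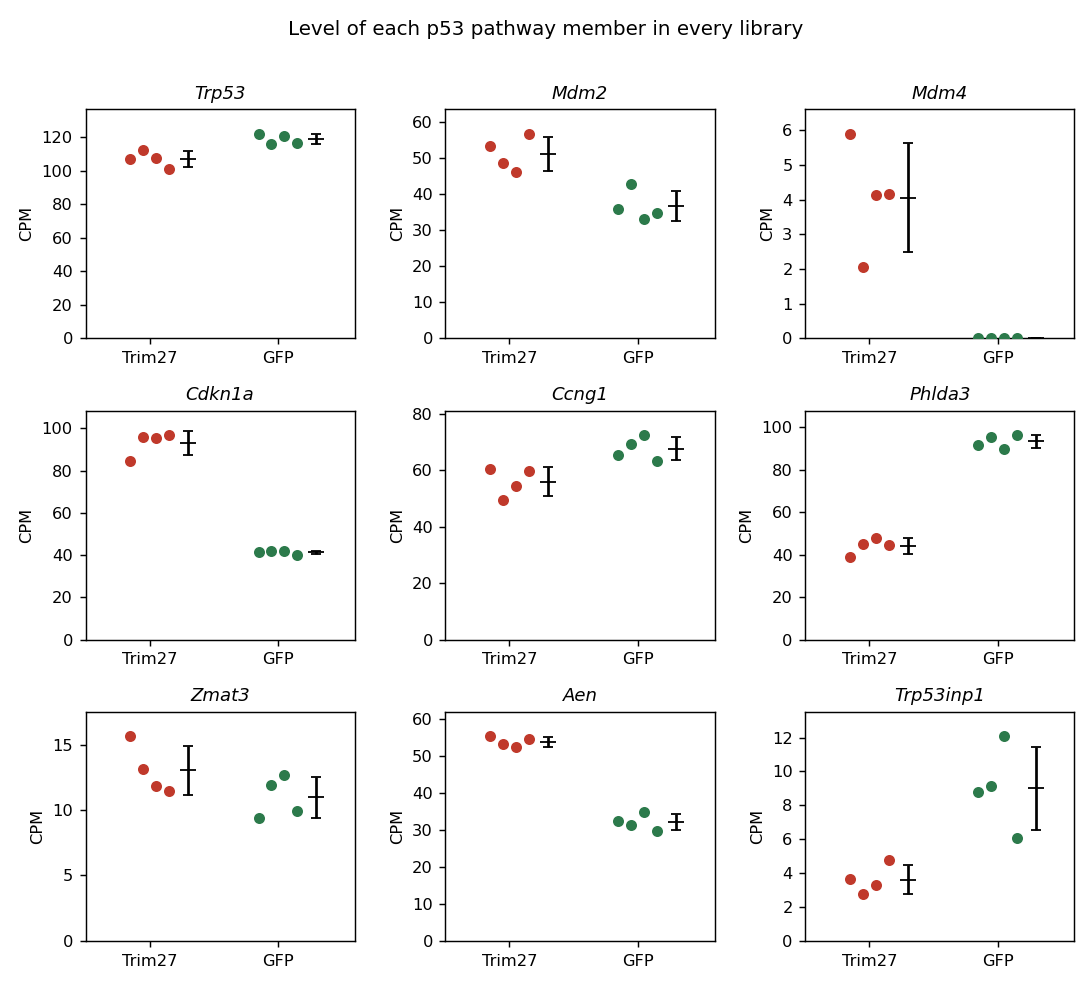
CPM of each member in every library, Trim27 on the left (red) and GFP on the right (green), with the mean and SD in black (n = 4 each) and each axis starting at 0. The groups are apart for every member except Zmat3, and Mdm4 is at 0 in all 4 GFP libraries; the small Trp53 and Ccng1 differences shown here turn round with library size as the only scaling.

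Trp53, the gene of p53 itself, was at 106.6, 112.2, 107.7 and 100.8 CPM in Trim27 replicates 1 to 4, against 121.8, 115.8, 120.7 and 116.5 CPM in GFP replicates 1 to 4. The lowest GFP library lay just above the highest Trim27 library, so the groups were apart by a narrow margin. The Trp53 log2 fold change was -0.15 (SE 0.06, edgeR adjusted p = 0.0148), a level 0.901 times that of the GFP group. Among the 1977 genes of like abundance (6 to 8 mean log2 CPM) only 16% had a smaller change in either direction. The call was lost with DESeq2 size factors (-0.11, adjusted p = 0.0613), upper-quartile factors (-0.10, adjusted p = 0.0881), no filter (-0.12, adjusted p = 0.0676) and the length trend of abundant genes (at least 6 mean log2 CPM) removed (-0.01, adjusted p = 0.801), and with library size alone the value was 0.15 (adjusted p = 0.0104). With the length trend fitted on all genes removed it was instead further down, at -0.47 (adjusted p = 6.75e-09). The size and direction of the Trp53 difference thus depended on how the libraries were scaled and corrected.

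Mdm2, the main ubiquitin ligase of p53, stood at 53.38, 48.72, 46.08 and 56.65 CPM in Trim27 replicates 1 to 4, and at 35.84, 42.64, 33.21 and 34.73 CPM in GFP replicates 1 to 4. Every Trim27 library was above every GFP library, and GFP replicate 2 came nearest. Mdm2 rose by 0.48 on the log2 scale (SE 0.09, adjusted p = 1.23e-05), which is 1.39-fold. In its abundance class (4 to 6 mean log2 CPM, 3375 genes) 32.7% of genes changed less. After a correction that removes each library's trend with exonic length, Mdm2 was at 0.06 (adjusted p = 0.559), and against a required fold above 1.5 its adjusted p was 0.896.

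Mdm4, the p53-binding relative of Mdm2, had 98, 34, 75 and 49 counts in Trim27 replicates 1 to 4 and 0 counts in each of the GFP libraries. In CPM the Trim27 libraries were at 5.891, 2.045, 4.138 and 4.155, the widest relative spread of any member in that group (coefficient of variation 38.8%). Against a floor of 3 counts over the 4 GFP libraries, 0.0827 CPM, Mdm4 was at least 49-fold higher in the Trim27 group. No p is given, since Mdm4 passed the filter only through the libraries where it is high. Of the 2117 genes in its abundance class (under 2 mean log2 CPM), 19.7% were at 0 in every GFP library, and 58.5% of the class were called higher. An absence across a whole group was thus common among genes this low, and Mdm4 had 256 counts in all.

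The ratio of 2 member counts within a library does not depend on how libraries are scaled. Mdm2 counts were 0.501, 0.434, 0.428 and 0.562 of Trp53 counts in Trim27 replicates 1 to 4, and 0.294, 0.368, 0.275 and 0.298 in GFP replicates 1 to 4. The regulator thus stood higher against its substrate gene in each Trim27 library, by 0.64 on the log2 scale. Cdkn1a counts were 0.795, 0.857, 0.885 and 0.96 of Trp53 counts in the Trim27 libraries, and 0.341, 0.361, 0.347 and 0.343 in the GFP libraries, a difference of 1.33 in log2 ratio. Phlda3 counts were 0.46, 0.467, 0.503 and 0.46 of Cdkn1a counts in the Trim27 libraries, against 2.21, 2.28, 2.15 and 2.41 in the GFP libraries, a difference of -2.26. So among 2 target genes of the same factor the order of counts was opposite in the groups, in every library. That holds for counts alone, since Phlda3 has 1559 exonic bases and Cdkn1a 3553. In CPM per kilobase Phlda3 was at 28.3 and Cdkn1a at 26.2 in the Trim27 group, within their spread. In the GFP group Phlda3 was at 59.9 and Cdkn1a at 11.6, so by length the order did not reverse. Mdm4 was without GFP counts, so its ratios to Trp53 and Mdm2 had to separate the groups and are neither given nor counted as tests. The other 3 ratios each separated the groups fully, and each gave p = 0.0286 in a 2-sided exact permutation test, the smallest that 4 against 4 libraries can give (adjusted p = 0.0286 over the 3). Each ratio set a gene higher in every Trim27 library against a gene lower in every Trim27 library. Full separation, and with it the p, thus followed from the member levels and is no separate support. With the length trend removed the 3 differences were 0.53, 1.37 and -1.87.

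**Figure D3:**
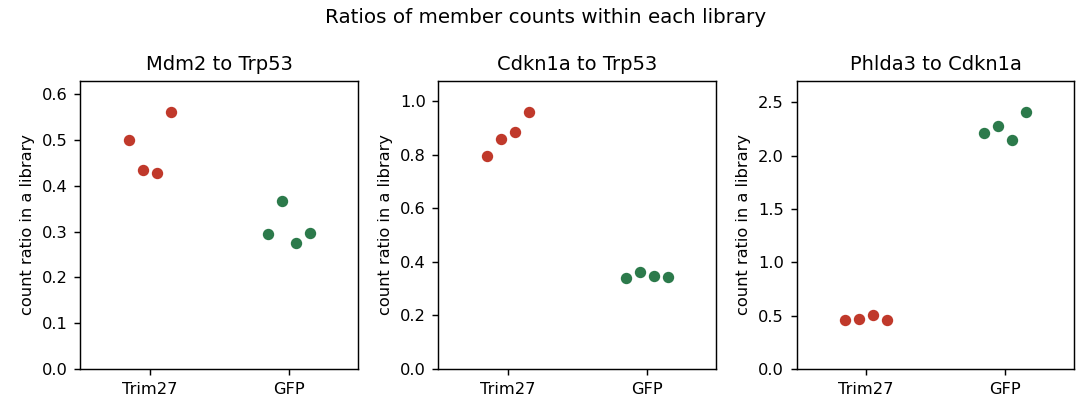
Ratio of the counts of 2 members within each library, Trim27 on the left and GFP on the right, with each point a library and axes starting at 0. The Phlda3 to Cdkn1a ratio is at 0.46 to 0.503 in the Trim27 libraries and 2.15 to 2.41 in the GFP libraries, while the Mdm2 to Trp53 and Cdkn1a to Trp53 ratios are higher in all Trim27 libraries.

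Cdkn1a encodes p21, which binds and inhibits cyclin-dependent kinases and is the best known cell cycle target of p53. Its level was 84.76, 96.12, 95.3 and 96.76 CPM in Trim27 replicates 1 to 4, against 41.55, 41.78, 41.82 and 39.96 CPM in GFP replicates 1 to 4. Trim27 replicate 1 was the lowest of its group and still far above any GFP library. Cdkn1a rose by 1.18 on the log2 scale (SE 0.07, adjusted p = 1.15e-15), or 2.26-fold, and 95.5% of genes of like abundance had a lower value. It stayed between 0.90 and 1.48 over the 20 alternatives, and each of them called it. An unclassified transcript, AC167363.2, shares 273 of the 3553 exonic bases of Cdkn1a on the opposite strand, and no source used here gives the strand setting of the counts.

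Ccng1, which encodes cyclin G1, a p53 target that brings a phosphatase to Mdm2, was at 60.66, 49.5, 54.35 and 59.79 CPM in Trim27 replicates 1 to 4, against 65.52, 69.43, 72.52 and 63.29 CPM in GFP replicates 1 to 4. The groups were apart, with GFP replicate 4 close to Trim27 replicate 1. The log2 fold change was -0.27 (SE 0.07, adjusted p = 0.00136), or 0.828 times the GFP level. With library size alone the value was 0.03 (adjusted p = 0.707), and removal of the trend fitted on abundant genes gave -0.10 (adjusted p = 0.21). With the trend fitted on all genes removed Ccng1 was at -0.54 (adjusted p = 4.81e-08).

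Phlda3 encodes a small pleckstrin homology protein that competes with Akt for membrane lipids and so restrains Akt signalling. It was at 39.02, 44.93, 47.95 and 44.52 CPM in Trim27 replicates 1 to 4, and at 91.89, 95.48, 89.97 and 96.37 CPM in GFP replicates 1 to 4. The groups were far apart, with every Trim27 library well below every GFP library. Its log2 fold change was -1.08 (SE 0.07, adjusted p = 1.16e-14), 0.472 times the GFP level, and 9.26% of genes of like abundance had a lower value. It ran between -1.16 and -0.62 over the 20 alternatives, all called.

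Aen, a nuclease that p53 induces during apoptosis, was at 55.19, 53.11, 52.26 and 54.61 CPM in Trim27 replicates 1 to 4, against 32.31, 31.36, 34.89 and 29.59 CPM in GFP replicates 1 to 4. The Trim27 libraries were tightly grouped (coefficient of variation 2.5%) and all above the GFP libraries. Aen rose by 0.75 on the log2 scale (SE 0.08, adjusted p = 6.31e-10), or 1.68-fold, and 69.2% of genes of like abundance had a lower value. The median absolute change of that class was 0.78, and 48% of its genes changed less than Aen in either direction. With the length trend removed it was 0.23, still called.

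Zmat3, an RNA-binding zinc finger protein induced by p53, was the member that did not pass. It was at 15.63, 13.17, 11.86 and 11.45 CPM in Trim27 replicates 1 to 4, against 9.361, 11.91, 12.66 and 9.966 CPM in GFP replicates 1 to 4. The groups overlapped. The log2 fold change was 0.25 (SE 0.15, adjusted p = 0.11), a value that moved with the processing. Library size alone gave 0.56 (adjusted p = 0.00128), and removal of the length trend gave -0.51 (adjusted p = 0.00185).

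Trp53inp1, which encodes a nuclear protein that helps kinases phosphorylate p53 and takes part in autophagy, was at 3.667, 2.767, 3.311 and 4.749 CPM in Trim27 replicates 1 to 4, against 8.79, 9.144, 12.07 and 6.062 CPM in GFP replicates 1 to 4. GFP replicate 4 was the lowest of its group and lay nearest to the Trim27 libraries. Its log2 fold change was -1.33 (SE 0.22, adjusted p = 2.1e-06), or 0.399 times the GFP level. In its class (2 to 4 mean log2 CPM, 2906 genes) the median absolute change was 1.63, and 43.8% of genes changed less.

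Divided by exonic length, taken as the merged exons of GENCODE M21, the members spanned a wide range of levels. In the Trim27 group Phlda3 (28.3 ± 2.39 CPM per kilobase), Trp53 (26.4 ± 1.15) and Cdkn1a (26.2 ± 1.6) were highest and lay within their spread of each other. Ccng1 followed at 16 ± 1.48 CPM per kilobase, then Mdm2 at 10.1 ± 0.929 and Aen at 9.27 ± 0.232, which lay within the spread of Mdm2. Zmat3 (1.14 ± 0.165), Trp53inp1 (0.56 ± 0.129) and Mdm4 (0.274 ± 0.106) were the lowest (SD, n = 4). In the GFP group Phlda3 stood alone at 59.9 ± 1.93 CPM per kilobase, above Trp53 (29.3 ± 0.739), Ccng1 (19.3 ± 1.17), Cdkn1a (11.6 ± 0.249), Mdm2 (7.2 ± 0.819) and Aen (5.52 ± 0.381). There Trp53inp1 (1.39 ± 0.379) and Zmat3 (0.96 ± 0.137) lay within their spread, and Mdm4 was at 0. The order of the members therefore differed between the groups mainly in the place of Cdkn1a, which was level with Trp53 and Phlda3 in Trim27 libraries and below Ccng1 in GFP libraries.

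The genes whose pattern over the 8 libraries was closest to a member were sought by the root mean square difference of centred log2 CPM among 4009 other genes of at least 5 mean log2 CPM. Npc2 (0.027), Luc7l (0.037) and Calm3 (0.038) were nearest to Trp53. Isy1 (0.038), Gart (0.047) and the mitotic kinase gene Plk1 (0.053) were nearest to Cdkn1a. Isy1 had a log2 fold change of 1.14, Gart 1.11 and Plk1 1.16, beside 1.18 for Cdkn1a. The measure takes in the step between the groups, so nearness to Cdkn1a largely restates a like fold change.

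Other p53 target genes outside the BCL2 family rose more often than they fell. Of 30 listed, 25 were tested, of which 17 rose, 2 fell and 6 did not pass. Over all genes 85.5% were called and 47.5% were higher. The 17 include Sesn1, Polk, Ddb2 and Tob1, which passed the filter on low counts only through the Trim27 libraries, so the filter favoured a rise. The median log2 fold change of the 25 was 0.36, beside 0.14 over all genes. Removal of the length trend left 11 that rose and 6 that fell, beside 4403 higher and 4919 lower of all 11040 genes. With a fold above 1.5 required 8 rose and 1 fell, beside 3892 higher and 2452 lower of all genes. Gdf15, Plk2, Fas, Eda2r and Pltp had too few counts to be tested.

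**Figure D4:**
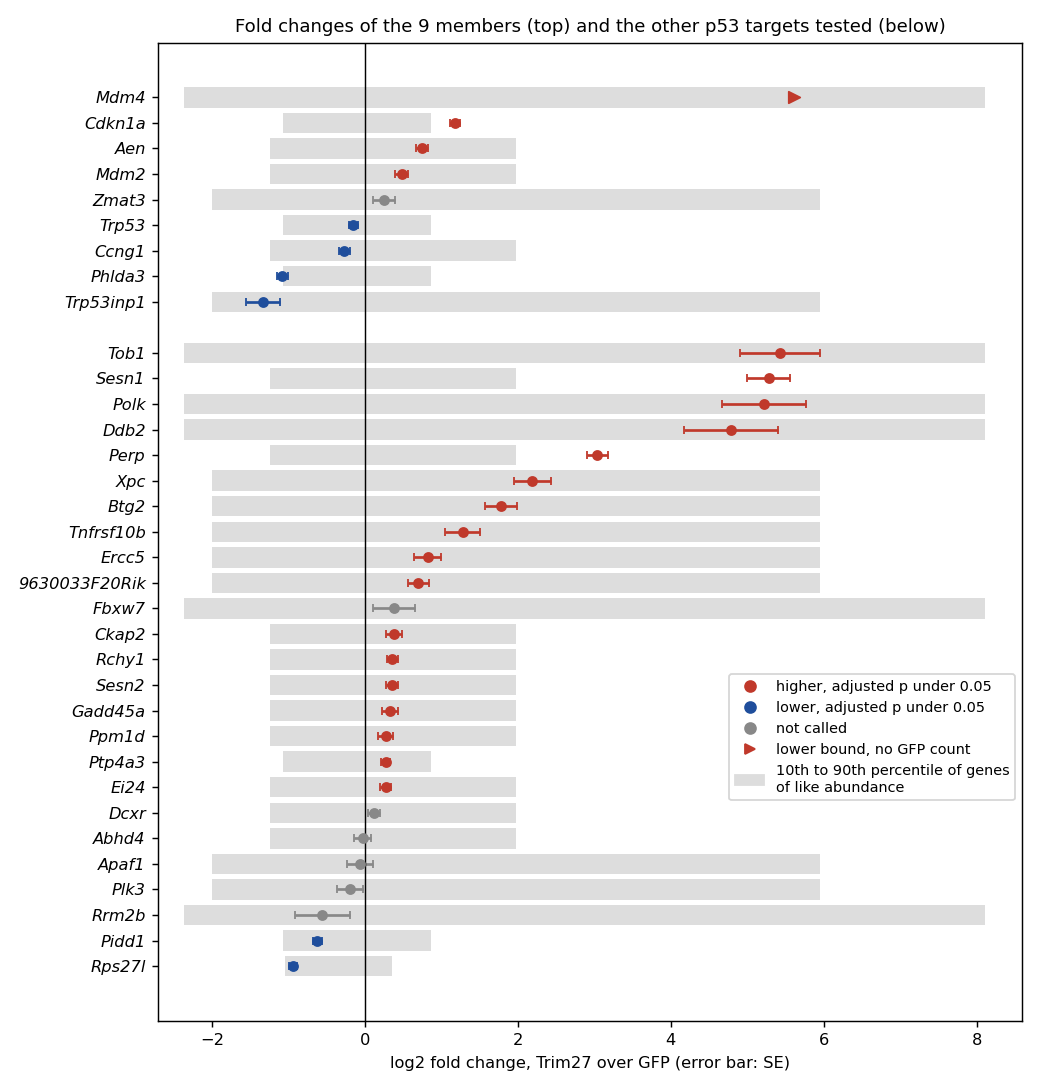
log2 fold change of the 9 members (top) and the other p53 targets tested (below), Trim27 over GFP with SE, and grey bars for the 10th to 90th percentile of genes in the same abundance class. Cdkn1a, Sesn1 and Perp lie above their grey bars, and Phlda3 lies just below its bar. Mdm4 is drawn at its lower bound, and the small Trp53 and Ccng1 falls turn round with library size as the only scaling.

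Sesn1, which encodes a sestrin that restrains mTORC1 under stress, stood furthest out among the more abundant of these genes. It was at 33.06, 34.41, 34.21 and 37.82 CPM in Trim27 replicates 1 to 4, against 2.511, 0.4253, 0.4779 and 0.2055 CPM in GFP replicates 1 to 4. GFP replicate 1 was the highest of its group and still far below any Trim27 library. Sesn1 rose by 5.28 on the log2 scale (SE 0.28), and by 6.54 without GFP replicate 1, so the size of its fold rests on that library. No p is given for Sesn1, since it passed the filter on low counts only through the Trim27 libraries. Perp, a membrane protein gene of p53-dependent apoptosis, averaged 34.98 ± 3.99 CPM in the Trim27 group and 4.251 ± 0.683 CPM in the GFP group (log2 fold change 3.04). Btg2, an antiproliferative gene, averaged 17.36 ± 0.627 CPM in the Trim27 group and 5.101 ± 2.55 CPM in the GFP group (1.78). Ercc5, a repair nuclease gene, rose by 0.82, and 9630033F20Rik, the older symbol of the metabolic phosphatase gene Tigar, rose by 0.70. The call of Ercc5 was lost with the length trend removed (0.30, adjusted p = 0.118).

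Smaller rises were seen for the growth arrest gene Gadd45a (0.33, adjusted p = 0.00524) and for Ppm1d, the phosphatase that turns off p53 (0.27, adjusted p = 0.0193). The Ppm1d groups overlapped. Its call was lost without Trim27 replicate 1 (0.14, adjusted p = 0.181), GFP replicate 3 (0.24, adjusted p = 0.0571) or GFP replicate 4 (0.22, adjusted p = 0.0771), and after removal of the length trend (0.06). The 2 genes that fell were Rps27l, a ribosomal protein paralog, at 381.9 ± 31.7 CPM in the Trim27 group and 732.5 ± 34.8 CPM in the GFP group (-0.94), and Pidd1, a death domain gene, at 73.05 CPM in the Trim27 group and 112.5 CPM in the GFP group (-0.62). Pidd1 lay outside the naming rule and was named because only 2 of the list fell. The share of ribosomal protein counts, given above, moved the same way as Rps27l, and its part was not tested.

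Genes that modify p53 or bind its regulators moved in both directions. Of 31 listed, 28 were tested, of which 12 rose, 12 fell and 4 did not pass, against 47.5% higher and 38% lower over all genes. Those that rose include Atm, Ep300, Trp53bp1 and Trp53bp2, which passed the filter on low counts only through the Trim27 libraries. The median log2 fold change of the 28 was -0.11. The balance moved with the processing, to 14 higher and 10 lower with library size alone, and to 8 higher and 18 lower (median -0.63) after removal of the length trend, where the median of all genes was -0.08. Of all 11040 genes, 6274 were higher and 3108 lower with library size alone, and 4403 higher and 4919 lower with the length trend removed. Trp63 and Trp73, the p53 paralogs, had no count in any library. Chek2, a checkpoint kinase gene, was at 4.268, 3.368, 3.532 and 2.29 CPM in Trim27 replicates 1 to 4, against 19.18, 18.07, 17.92 and 18.18 CPM in GFP replicates 1 to 4 (-2.42, SE 0.17, adjusted p = 6.02e-14). The ubiquitin ligase gene Rfwd2, now Cop1, fell by 2.45 on the log2 scale and the DNA-dependent protein kinase gene Prkdc fell by 2.17. In the other direction the methyltransferase gene Setd7 (1.80), the deacetylase gene Hdac1 (1.37) and the ubiquitin ligase gene Huwe1 (1.15) rose.

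Usp7, a deubiquitinase that acts on both p53 and Mdm2, averaged 49.19 ± 5.05 CPM in the Trim27 group and 66.32 ± 6.08 CPM in the GFP group (SD, n = 4 each). Its log2 fold change was -0.43 (adjusted p = 1.25e-05), but -0.13 (adjusted p = 0.141) with library size alone. Rpl5 (-0.54) and Rpl11 (-0.92), ribosomal proteins that bind Mdm2 when free of the ribosome, fell together with the ribosomal protein share of counts. Cdkn2a, whose Arf product binds Mdm2, had 59 counts over the Trim27 libraries and 0 over the GFP libraries, too few to be tested, and was at least 11.3-fold higher against a floor of 3 counts over the GFP group.

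The cyclin-dependent kinases, their cyclins and inhibitors and the Rb and E2F genes also moved in both directions. Of 26 listed, 22 were tested, of which 9 rose, 11 fell and 2 did not pass. The 9 include E2f3, Ccne2 and Cdkn2b, which passed the filter on low counts only through the Trim27 libraries. Over all genes 47.5% were higher and 38% lower. The median of the list was -0.08 on the log2 scale. Library size alone gave 11 higher and 7 lower, beside 6274 higher and 3108 lower of all 11040 genes. Removal of the length trend gave 6 higher and 13 lower (median -0.53), beside 4403 higher and 4919 lower of all genes. Unlike Cdkn1a, its relative Cdkn1b, the gene of p27, fell, with 2.45 ± 0.673 CPM in the Trim27 group and 12.17 ± 1.09 CPM in the GFP group (-2.30, SE 0.20, adjusted p = 9.17e-12). The pocket protein genes Rbl2 (-2.03) and Rbl1 (-1.28) fell, as did Ccne1, the gene of cyclin E1 (-1.25), and Ccnd2, that of cyclin D2 (-0.62). E2f2 (1.59) and the mitotic cyclin gene Ccnb2 (0.98) rose. E2f3 rose to 18.38 ± 3.42 CPM in the Trim27 group, against 0.2213 ± 0.0151 CPM in the GFP group, where it had 8 counts in all.

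p21 is known to restrain the kinases that keep the DREAM repressor complex apart, and DREAM represses mitotic genes. Of 20 such genes, all tested, 13 rose, 5 fell and 2 did not pass, against 47.5% higher over all genes. Their median was 0.34, beside 0.14 over all genes. Most of them were at 6 mean log2 CPM or more, where fewer genes rose. From 6 to 8 the median of all genes was -0.17 with 33.9% higher, and at 8 or more -0.37 with 21.4% higher. Library size alone gave 15 higher and 2 lower, beside 6274 higher and 3108 lower of all 11040 genes. Removal of the length trend gave 10 higher and 7 lower (median 0.16), beside 4403 higher and 4919 lower of all genes. Plk1, a mitotic kinase gene, was at 176.4, 211.3, 203.9 and 191 CPM in Trim27 replicates 1 to 4, against 91.21, 86.12, 85.19 and 86.81 CPM in GFP replicates 1 to 4 (1.16). Bub1 (-0.78), Mki67 (-0.48), Aurkb (-0.35), Aurka (-0.34) and Cdk1 (-0.20) were the 5 that fell, so proliferation genes went both ways. Kif23 (4.17), Cenpf (3.80), Cdc25c (2.42), Foxm1 (1.40) and Top2a (1.25) rose as Plk1 did. Kif23 and Cenpf passed the filter on low counts only through the Trim27 libraries. No test related Cdkn1a to the DREAM genes.

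Transcript length moved with the fold changes across the whole table. The median log2 fold change was -0.20 for genes of 1000 to 2000 exonic bases, the class of Phlda3 (1559 bases), 0.13 for 2000 to 4000 bases, the class of Cdkn1a and Ccng1, 0.39 for 4000 to 8000 bases, the class of Trp53, Mdm2, Aen and Trp53inp1, and 0.63 for 8000 or more, the class of Zmat3 and Mdm4. Among genes of at least 6 mean log2 CPM these medians were -0.51, -0.22, -0.03 and 0.16 in turn. Removing the trend fitted on all genes shifted the median of all genes to -0.08. Cdkn1a (0.90), Aen (0.23), Phlda3 (-0.97), Trp53inp1 (-1.91), Trp53 (-0.47) and Ccng1 (-0.54) stayed on the same side and called, while Mdm2 lost its call and Zmat3 turned. With the trend fitted on abundant genes removed instead, Trp53 (-0.01) and Ccng1 (-0.10) lost their calls. Phlda3 (-0.62) and Mdm2 (0.54) kept theirs.

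**Figure D5:**
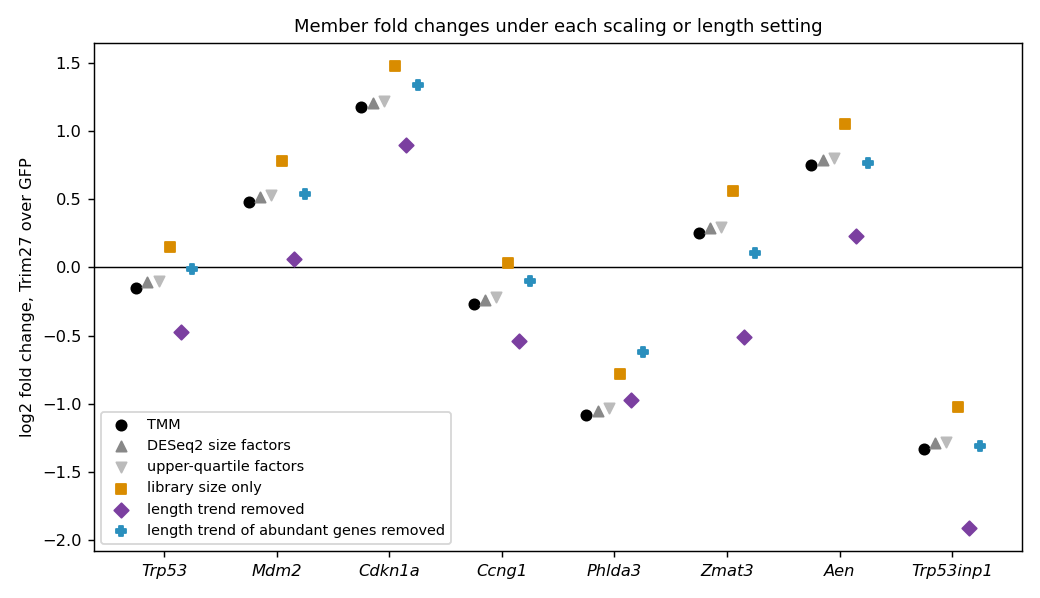
log2 fold change, Trim27 over GFP, of 8 members under TMM scaling (black) and under 3 other scalings and 2 corrections for transcript length, with Mdm4 left out because its GFP counts are 0. Cdkn1a, Aen, Mdm2, Phlda3 and Trp53inp1 keep their sign at each setting drawn, while Trp53 and Ccng1 turn round with library size only and Zmat3 with the length trend removed.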

How the data were processed

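The authors deposited raw read counts per gene symbol in 1 table with a column for each of the 8 libraries. Per the submitters' processing notes, bcl2fastq, HISAT2 and featureCounts were used with the build NCBIM37. Tool versions, annotation and strand setting: not given in the sources used here. A line with no gene name held 0 counts and was left out. Counts from 1 to 10 were mostly even (64.7% to 72%), so both reads of a pair may have been counted, and floors, which cover counting error only, then overstate fold bounds.

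The tests used edgeR 4.0.16 under R 4.3.3 (filterByExpr with minimum count 10 and minimum total count 15, TMM, robust quasi-likelihood test, 2-sided, Benjamini-Hochberg adjustment over 11040 genes, threshold 0.05). SEs were derived from the F statistic. The fit was tested on simulated data in which few genes changed, so that test does not cover a table where most genes were called. Alternatives were other scalings, filters, tools (DESeq2 1.42.0, limma 3.58.1), a replicate block, halved counts, removal of the trend with exonic length (32977 of 33435 symbols matched GENCODE M21, lowess span 0.3), a fold above 1.5, and leaving out each library.

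A listed erythroid marker is not reported here. The members, lists and tests were chosen with earlier results of these data known. Beside the members and Trim27, the genes named were up to 6 per list with the largest changes among those called with at least 3 mean log2 CPM and no overlap between groups, 10 genes whatever their p, and the 3 genes most like Trp53 and most like Cdkn1a. Outside this rule, Pidd1 and the DREAM genes that fell were named for their direction. A few other list genes were named only because they passed the filter on low counts through the Trim27 libraries alone.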

Additional observations from a re-analysis of the deposited data

Results flagged for a closer look

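Of 92 groups of 4 libraries looked at over the named genes, 8 held a library far from the other 3, where chance gives about 1 in 20. Cdkn1a was at 84.76 CPM in Trim27 replicate 1, against 95.3 to 96.76 CPM in the others of that group, and at 39.96 CPM in GFP replicate 4, against 41.55 to 41.82 CPM. Rps27l was at 429.2 CPM in Trim27 replicate 1, against 362.5 to 369.7 CPM, and at 680.5 CPM in GFP replicate 1, against 746.6 to 752.7 CPM. Ppm1d was at 37.57 CPM in Trim27 replicate 1, against 28.81 to 30.11 CPM. Sesn1 was at 2.511 CPM in GFP replicate 1, against 0.2055 to 0.4779 CPM. Ercc5 was at 8.676 CPM in GFP replicate 1, against 5.018 to 5.635 CPM. Rbl2 was at 24.76 CPM in GFP replicate 4, against 21 to 21.26 CPM. Trim27 replicate 1 and GFP replicate 1 held 6 of the 8.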

How the results depend on the processing

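Cdkn1a, Aen, Phlda3 and Trp53inp1 kept their direction and call at every alternative that tested them, 19 or 20 each. Values that turned with library size only were Trp53 (0.15), Ccng1 (0.03), Npc2 (0.14), Luc7l (0.19) and Calm3 (0.14), Calm3 also turned when the trend fitted on abundant genes was removed (0.09), and Zmat3 turned with the length trend removed (-0.51). Luc7l was called only without Trim27 replicate 2 (-0.18, adjusted p = 0.0373), with library size only and with the length trend removed (-0.76). The cause was not tested.

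At a fold above 1.5 by glmTreat, 2452 genes were lower in all, 2 members were lower, 8 other p53 targets were higher and 1 lower, 7 p53 modifiers were higher and 7 lower, 5 cell cycle genes of the CDK list were higher and 5 lower, and 7 DREAM targets were higher and 1 lower, as a stricter rule must give fewer. With library size only, 2 members, 7 CDK list genes and 2 DREAM targets were lower, beside 3108 of all 11040 genes. When the trend fitted on abundant genes was removed, 2 members were lower, beside 3304 of all genes. With the length trend removed 11 other p53 targets were higher and 6 lower, beside 4403 and 4919 of all genes. With at least 10 CPM in 4 libraries 3453 genes were higher, of fewer tested.

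Leaving out each library gave 5100 to 5351 genes higher and 4118 to 4334 lower, with 4 members higher (Mdm4, which had to differ, among them) and 4 lower each time. It gave log2 ratio differences of 0.56 to 0.73 for Mdm2 to Trp53, 1.28 to 1.37 for Cdkn1a to Trp53 and -2.29 to -2.23 for Phlda3 to Cdkn1a, with no test, since p cannot then go below 0.0571.

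Same-numbered libraries of the groups did not deviate together (correlations -0.03 to 0.02). That shows no sign of pairing but cannot decide whether same-numbered libraries were prepared together. With the replicate block 5133 genes were higher and 4027 lower, no call of a member changed, and the paired ratio differences were 0.64, 1.33 and -2.26, where p cannot go below 0.125. Mdm4 rests on 256 counts and Cdkn2a on 59 counts in the Trim27 group, with none in the GFP group, so depth limits both to lower bounds.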
